A study of Mus musculus with 15 samples.

Results

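Macrophages of subcutaneous fat (sATM, 2 libraries) were set against macrophages of visceral fat (vATM, 2 libraries), 4 of the 15 libraries of the series. All came from C57BL/6J mice, were sorted as cells double positive for F4/80 and CD45, and had their total RNA sequenced ex vivo from low input. The submitters call both populations anti-inflammatory white adipose tissue macrophages. Both fat depots were held in collagenase for 30 minutes at 37 °C with shaking, so the digestion did not differ between them. Tissues came from 10 mice. Which animals went into which library, their age and their sex are not in the labels. Each p-value thus reflects how far libraries of a group lie apart, and that spread may be technical. F4/80 and CD45 do not separate macrophages from every monocyte, and the labels give no further gate for the fat samples.

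Fat holds macrophages that sit along vessels and take up debris, lipid and iron, and it also receives monocytes from the blood. Classical monocytes carry the surface protein Ly6C and enter tissue, where they can become macrophages. Nonclassical monocytes have low Ly6C, depend on the nuclear receptor Nr4a1 and patrol the vessel wall. Resident macrophages of fat are known for scavenger and lectin receptors such as Cd163, Lyve1 and Folr2. In a bulk library, fewer cells of a type and less RNA per cell cannot be told apart.

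Levels are given in CPM, DNA-corrected counts per M (mega) counts of the TMM-scaled library, with library 1 before library 2 of each tissue. The sATM libraries held 4.42 and 8.38 M counts and the vATM libraries 12.5 and 9.05 M. Genes that collect ribosomal RNA reads took 67.1% and 57.6% of the sATM counts and 71.5% and 64.5% of the vATM counts. In the uncorrected table, olfactory receptor genes, used here as a gauge of DNA reads, had 101 and 312 counts per M in sATM against 32.9 and 278 in vATM, so library 2 was the higher in both tissues. Of the genes with at least 100 uncorrected counts, the corrected table lists 8.12% and 14.3% at 0 in sATM and 3.99% and 13% in vATM. A count of 3 corresponds to 0.764 and 0.345 CPM in sATM and to 0.359 and 0.369 CPM in vATM, which covers counting error only.

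Macrophage genes matched the labelled cell type in all 4 libraries. Adgre1, which encodes F4/80, had 129 and 193 CPM in sATM and 154 and 194 CPM in vATM. Ptprc, which encodes CD45, had 951 and 417 CPM in sATM and 389.8 and 345 CPM in vATM, so sATM 1 was the highest and the means were less than 2-fold apart. All 19 members of the macrophage core list reached 10 CPM in at least 1 of the tissue means, and their median log2 fold change was 0.02, beside -0.04 for all genes tested. Maf, a transcription factor of resident macrophages, was the single member whose libraries did not overlap with tissue means at least 2-fold apart, with 143 and 137 CPM in sATM and 342 and 239.8 CPM in vATM. Markers of other cells were present at different levels. Summed CPM of T cell genes were 34.1 and 50.5 in sATM and 39.1 and 44.4 in vATM, and those of endothelial genes were 59.1 and 23.2 in sATM and 28.4 and 29.5 in vATM. B and plasma cell genes summed to 204 and 221 CPM in sATM and 254 and 207 CPM in vATM, and Schwann cell genes to 131 and 204 CPM in sATM and 291 and 305 CPM in vATM. The dendritic cell list summed to 753 and 793 CPM in sATM and 738 and 772 CPM in vATM, and the eosinophil list to 139.5 and 367 CPM in sATM and 259 and 391 CPM in vATM. The part of these cells in the results below was not tested.

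Across all genes, 3 were higher and 3 lower in sATM than in vATM. These 6 are 0.0392% of the 15289 genes tested (0.0196% higher and 0.0196% lower), at an adjusted p below 0.05 and at least a 2-fold difference in edgeR's quasi-likelihood test. The higher genes were Plac8, Ly6c2 and Gngt2, and the lower genes were Slc40a1, Slco2b1 and Pxdc1. At an unadjusted p below 0.05 there were 569 genes (3.72%), of which 298 were higher (1.95%) and 271 lower (1.77%).

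Plac8 (NM_139198, chr5:100553733-100572205 of mm10, minus strand) encodes a small cysteine-rich protein abundant in monocytes and other myeloid cells. It had 296 and 50.6 CPM in sATM, against 2.39 and 0.983 CPM in vATM. Both sATM libraries were far above both vATM libraries, and sATM 1 was well above sATM 2. Plac8 rose by 6.66 ± 0.91 on the log2 scale (SE, edgeR adjusted p = 0.016). Ly6c2 (NM_001099217, chr15:75108161-75111949, minus strand) encodes the Ly6C surface protein of classical monocytes. It had 281 and 59.3 CPM in sATM, against 2.87 and 2.46 CPM in vATM, in the same order of libraries as Plac8. Ly6c2 rose by 5.98 ± 0.89 (SE, edgeR adjusted p = 0.0227). Its close paralog Ly6c1 had 7.64 and 4.48 CPM in sATM and 4.55 and 1.35 CPM in vATM, and how reads that fit both genes were assigned is not given in the sources used here. Gngt2 (NM_023121, chr11:95842295-95845731, plus strand) encodes a G protein gamma subunit. It had 151 and 24.4 CPM in sATM, against 4.31 and 3.81 CPM in vATM, and rose by 4.42 ± 0.64 (SE, edgeR adjusted p = 0.0217). Gngt2 overlaps Abi3, a gene on the opposite strand, in the annotation. Abi3 had 64.2 and 8.05 CPM in sATM and 2.27 and 0.737 CPM in vATM, and without strand the reads of the overlap cannot be told apart.

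Slc40a1 (NM_016917, chr1:45908070-45925594, minus strand) encodes ferroportin, the iron exporter of cells. It had 7.89 and 11.8 CPM in sATM, against 51.4 and 71.6 CPM in vATM. Both sATM libraries lay below both vATM libraries and close to each other. Slc40a1 fell by 2.62 on the log2 scale, with an SE of 0.35 (edgeR adjusted p = 0.016). Slco2b1 (NM_001252530, chr7:99657804-99706842, minus strand) encodes an organic anion transporter found in resident macrophages. It had 30.3 and 44.5 CPM in sATM, against 131 and 137 CPM in vATM, and fell by 1.84 with an SE of 0.30 (edgeR adjusted p = 0.0438). Pxdc1 (NM_025831, chr13:34627841-34652681, minus strand) had 0.764 and 0.575 CPM in sATM, against 10.1 and 5.65 CPM in vATM. It fell by 3.57 with an SE of 0.55 (edgeR adjusted p = 0.029), at levels near that of 3 counts in sATM. In the uncorrected table Pxdc1 had 10 and 97 counts in sATM and 125 and 154 in vATM, so sATM 2 lay much nearer to vATM there.

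**Figure D1:**
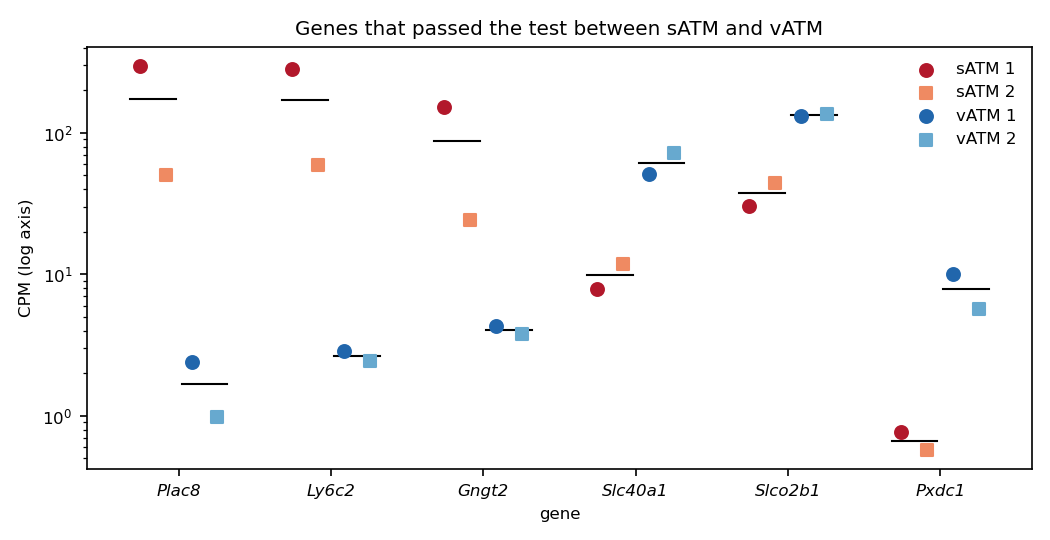
CPM on a log axis for the 6 genes that passed the test, with each point a library and each bar the mean of a tissue's 2 libraries, sATM left of vATM. Plac8, Ly6c2 and Gngt2 are higher in both sATM libraries with sATM 1 above sATM 2 (296 and 50.6 CPM for Plac8), while the sATM libraries lie close together for Slc40a1 and Slco2b1.

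With 2 libraries a tissue the calls depend on single libraries. Leaving out sATM 1, vATM 1 or vATM 2 left 0 genes called by edgeR, with 218, 324 and 263 at an unadjusted p below 0.05, whereas leaving out sATM 2 gave 52 higher and 16 lower genes, among them 4 of the 6 (not Slco2b1 and Pxdc1). The lone library of a tissue is then assumed to vary like the others. Fitting the 4 fat libraries alone, or the uncorrected gene-body counts, also left 0 called by edgeR, with 564 and 189 at an unadjusted p below 0.05. None of the 6 changed direction under the 15 alternatives tried, over which the log2 fold change lay between 5.04 and 7.43 for Plac8, between 4.59 and 6.68 for Ly6c2 and between 2.70 and 5.18 for Gngt2. It lay between -3.01 and -1.99 for Slc40a1, between -2.18 and -1.45 for Slco2b1 and between -3.76 and -1.46 for Pxdc1.

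The other macrophage populations of the series show where these levels lie. Plac8 had 139 ± 13.8 CPM in macrophages of sympathetic nerve fibers, taken from the same subcutaneous depot (SD, n = 2), and 3.85 ± 0.372 CPM in spleen macrophages (SD, n = 3). Ly6c2 had 204 ± 119.7 CPM in the fiber libraries and 3.35 ± 0.725 CPM in spleen. Gngt2 did not follow these 2 genes, with 137 ± 12.4 CPM in spleen and 80.0 ± 12.8 CPM in microglia (SD, n = 3). Its sATM mean was 87.8 ± 89.7 CPM (SD, n = 2). Slc40a1 was far higher in spleen, with 5161 ± 1589.5 CPM (SD, n = 3), and had 11.1 ± 1.35 CPM in fiber macrophages and 60.5 ± 7.55 CPM in ganglion macrophages. The sATM mean of Slc40a1, 9.87 ± 2.79 CPM (SD, n = 2), was thus near that of the fibers, and the vATM mean, 61.5 ± 14.3 CPM, near that of the ganglia. Slco2b1 did not follow that order, since fibers had 192 ± 43.4 CPM and microglia 621 ± 44.7 CPM, both above the sATM mean of 37.4 ± 10.0 CPM and the vATM mean of 134 ± 3.59 CPM. These are levels side by side, with no test between the tissues and different digestions for fibers and ganglia.

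Beyond the called genes, a wider set was counted in which both libraries of a tissue lay above both of the other, the tissue means differed at least 2-fold and the higher mean was at least 10 CPM. Of the 6593 genes with a mean of 10 CPM in either tissue, 224 were higher in sATM by this rule (3.4%, or 1.47% of all genes tested) and 276 lower (4.19%, or 1.81%). The 2 sATM libraries were not equal in it. Among the higher genes, 198 of 224 were higher in sATM 1 than in sATM 2, and among the lower genes 235 of 276 were lower in sATM 1.

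**Figure D2:**
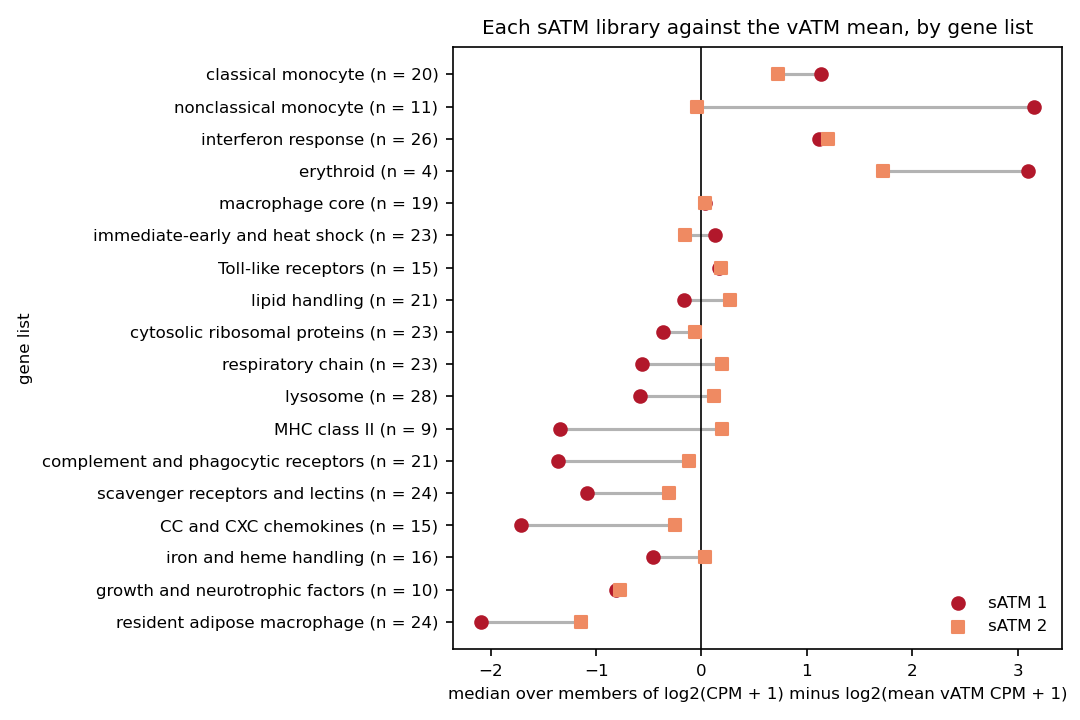
For each gene list, the median over members with at least 10 CPM of the log2(CPM + 1) difference between 1 sATM library and the vATM mean, with circles for sATM 1, squares for sATM 2 and n the number of members. Nonclassical monocyte genes lie at 3.16 in sATM 1 and at -0.04 in sATM 2, whereas interferon response genes lie at 1.11 and 1.20, and resident adipose macrophage genes at -2.09 and -1.14.

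Classical monocyte genes held 2 of the 6 called genes, both of them markers chosen with earlier results of these data known. Of 22 listed, 20 were tested, 2 were called (Plac8 and Ly6c2), and 10 were higher and 0 lower at an unadjusted p below 0.05, beside 1.95% and 1.77% of all genes. The median log2 fold change of the 20 was 1.04. Summed CPM were 13335 and 17159.7 in sATM and 12549.8 and 12779 in vATM, so the sum was highest in sATM 2, and Lyz2, a lysozyme that macrophages also make, was its most abundant member with 8006 and 11025 CPM in sATM and 7082 and 8224 CPM in vATM. Libraries did not overlap for 9 of the 20 members at 10 CPM, all higher in sATM, beside 3.4% of all genes at that level. Ms4a4c, a tetraspan protein of monocytes, had 92.7 and 47.4 CPM in sATM and 4.91 and 4.67 CPM in vATM (3.86 ± 0.75, SE, edgeR adjusted p = 0.108). Hp, which encodes haptoglobin, had 98.5 and 19.7 CPM in sATM and 1.8 and 4.79 CPM in vATM. Not every member followed. Ccr2, the receptor that brings classical monocytes into tissue, had 1031 and 1027 CPM in sATM and 961 and 688 CPM in vATM, and its libraries lay close in both tissues. S100a4 had 262 and 330.0 CPM in sATM and 336 and 292 CPM in vATM. Chil3, a secreted lectin of monocytes and alternatively activated macrophages, had 255 and 35.0 CPM in sATM and 5.99 and 82.1 CPM in vATM, so the tissues overlapped. With sATM 2 alone set against both vATM libraries, 5 members stood clear, and with sATM 1 alone 12 did. The share of all genes that stand clear with a single sATM library was not counted, here or for the lists below. In such counts the higher of that single library and the vATM mean had to reach 10 CPM.

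The nonclassical monocyte genes differed between the 2 sATM libraries more than between the tissues. All 12 listed genes were tested, 0 were called by edgeR, and their median log2 fold change was 2.39. At an unadjusted p below 0.05, 8 were higher and 0 lower, beside 1.95% and 1.77% of all genes. DESeq2 called 5 of them, edgeR with no count filter 6 and edgeR with a replicate block 2, all higher, and voom with quality weights called 0. Over all genes tested, these fits called 84 of 15289, 67 of 23455, 10 of 15289 and 21 of 15289 higher. Summed CPM of the list were 2743 and 314 in sATM and 563 and 414 in vATM, so sATM 1 alone was high and sATM 2 was below both vATM libraries. Nr4a1, the receptor that nonclassical monocytes need and also an immediate-early gene, had 997 and 156 CPM in sATM and 368 and 241 CPM in vATM. Cx3cr1, the fractalkine receptor, had 326 and 53.9 CPM in sATM and 98.7 and 72.0 CPM in vATM. For both genes sATM 2 had the lowest of the 4 values. Ace, the angiotensin-converting enzyme, had 344 and 7.82 CPM in sATM and 1.92 and 2.83 CPM in vATM. Treml4, a receptor of the TREM family, had 94.5 and 2.53 CPM in sATM and 1.44 and 0 CPM in vATM. Itgal, the alpha chain of the integrin LFA-1, had 303 and 14.1 CPM in sATM and 9.34 and 12.4 CPM in vATM. In each of these 3 genes sATM 2 stood much closer to vATM than to sATM 1. Cd300e had 62.9 and 2.18 CPM in sATM, against 0.12 and 0 CPM in vATM, which is under 3 counts. Treml4 and Cd300e were not particular to sATM 1, since spleen macrophages averaged 480 ± 78.2 and 132 ± 47.4 CPM (SD, n = 3). Ace averaged 3.01 ± 1.02 CPM in spleen. Spn, the sialophorin CD43 that marks these cells, is listed at 0 in all 4 corrected libraries, while the uncorrected table gives 729 and 204 counts in sATM and 199 and 176 in vATM.

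Of the 11 nonclassical genes at 10 CPM, all 11 were higher in sATM 1 than in sATM 2, and 10 by at least 2 log2 units. In that comparison 2.47% of 6734 genes lay as far apart toward sATM 1 and 2.3% toward sATM 2, and between the vATM libraries 0.183% and 0.0612% of 6540 did. The median sATM 2 minus sATM 1 difference was -3.33 for the nonclassical list and -0.61 for the classical list, of whose 20 members 13 were higher in sATM 1 and 7 in sATM 2. The vATM 2 minus vATM 1 medians were -0.08 and -0.18, and over all genes at 10 CPM the sATM median was 0.06 and the vATM median -0.08. These are single libraries, so no test was made. Without sATM 1, 0 nonclassical members stood clear of vATM by the rule with its 10 CPM floor, and without sATM 2 all 11 did, against 5 with both. That 0 does not mean that sATM 2 equaled vATM. Ace, Treml4 and Cd300e had 7.82, 2.53 and 2.18 CPM in sATM 2, above both vATM libraries but under the floor. Uncorrected gene-body counts gave a median of -1.52 for the classical list and -3.66 for the nonclassical list.

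**Figure D3:**
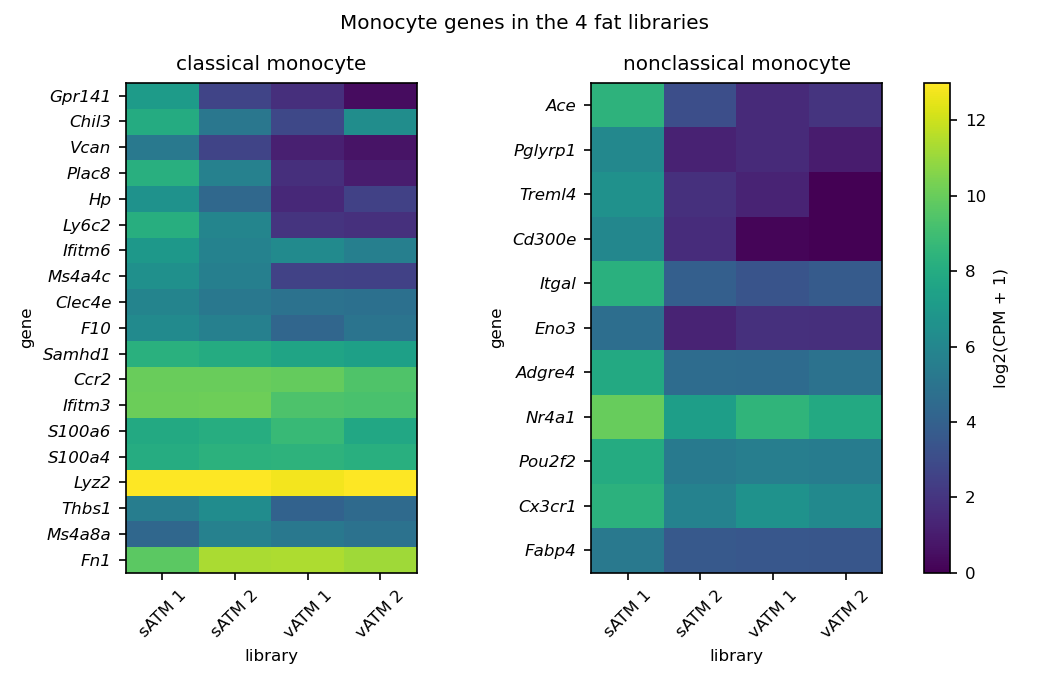
Heat maps of log2(CPM + 1) for the classical and nonclassical monocyte lists (rows, genes; columns, libraries), sorted by the sATM 2 minus sATM 1 difference, without members at 0 in all 4 libraries (11 of 12 nonclassical genes drawn); 19 of 20 classical genes are drawn, the other being left out by name. In the nonclassical panel the sATM 1 column is the brightest for every gene, and sATM 2 resembles vATM; in the classical panel Plac8, Ly6c2 and Ms4a4c are brighter in both sATM columns.

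Erythroid genes, like the nonclassical monocyte genes, had their highest sum in sATM 1, though not every member followed. Of the 4 at 10 CPM, 3 were higher and 1 lower without overlap, beside 3.4% and 4.19% of all genes at that level. The lower one was the transferrin receptor Tfrc, whose levels are given with the iron genes below. Hemoglobin alpha (Hba-a1) had 106 and 39.7 CPM in sATM and 14.6 and 6.39 CPM in vATM, and hemoglobin beta (Hbb-bs) had 140.1 and 55.1 CPM in sATM and 23.7 and 10.2 CPM in vATM. Over the 13 erythroid genes in the table, summed CPM were 373 and 157 in sATM and 82.1 and 56.4 in vATM. At an unadjusted p below 0.05, 5 of 9 tested members were higher and 0 lower, beside 1.95% and 1.77% of all genes. EdgeR called 0 of them, DESeq2 and edgeR with no count filter 3 each, and voom with quality weights 0. Over all genes these fits called 3, 84, 67 and 21 higher. The near-identical copies Hba-a1 and Hba-a2 share reads. Among neutrophil genes, 5 of 13 tested were higher and 1 lower at an unadjusted p below 0.05, beside the same 1.95% and 1.77%. The higher ones were led by the receptor Csf3r with 47.6 and 17.5 CPM in sATM and 4.67 and 7.13 CPM in vATM. Csf3r is also made by monocytes, and Ly6g, which defines neutrophils, had 0 and 0.345 CPM in sATM and 0 CPM in both vATM libraries. Summed CPM of the 18 neutrophil genes were 171 and 99.7 in sATM and 130.5 and 135 in vATM. The part of these cells in the monocyte difference was not tested.

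Some sympathetic neuron genes had higher values in sATM, at low levels. Of 17 tested, edgeR called 0, and 10 were higher and 0 lower at an unadjusted p below 0.05, beside 1.95% and 1.77% of all genes. DESeq2 called 3, edgeR with no count filter 2, edgeR with a replicate block 1 and voom with quality weights 0. Over all genes these fits called 84, 67, 10 and 21 higher. Tubb3, a neuronal tubulin, did not follow, with 0 and 0.575 CPM in sATM and 0.599 and 0.369 CPM in vATM. Summed CPM of the 19 genes in the table were 88.9 and 32.3 in sATM and 16.5 and 6.51 in vATM. Npy, which encodes neuropeptide Y, had 10.9 and 6.55 CPM in sATM and 1.32 and 0.614 CPM in vATM (3.13 ± 0.56, SE, edgeR adjusted p = 0.0811). Npy had 134 ± 78.3 CPM in macrophages of the nerve fibers (SD, n = 2). Slc6a2, the norepinephrine transporter, had 2.8 and 0 CPM in sATM and 0.239 and 0.246 CPM in vATM, and Maoa, which degrades norepinephrine, had 0 and 4.71 CPM in sATM and 7.18 and 8.48 CPM in vATM. Uncorrected counts of Slc6a2 were 20 and 124 in sATM and 9 and 114 in vATM, so the sATM order reversed there. Those of Maoa were 34 and 175 in sATM and 140 and 262 in vATM. A value of 0 for either gene thus depends on the DNA correction.

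Many resident adipose macrophage genes had lower values in sATM. All 26 listed were tested, 1 was called by edgeR (Slco2b1), 8 by DESeq2 and 11 by voom with quality weights, all lower. Over all 15289 genes these fits called 3, 35 and 14 lower. At an unadjusted p below 0.05, 13 members were lower and 0 higher, beside 1.77% and 1.95% of all genes. Their median log2 fold change was -1.56, and 18 of the 24 members at 10 CPM had libraries that did not overlap, all lower in sATM, beside 4.19% of all genes at that level. Summed CPM were 2609.8 and 8237 in sATM and 15522 and 12266 in vATM. Stab1, the scavenger receptor stabilin-1, had 31.1 and 60.4 CPM in sATM and 197 and 208 CPM in vATM (-2.14 ± 0.54, SE, edgeR adjusted p = 0.29). Lyve1, a hyaluronan receptor, had 25 and 78.4 CPM in sATM and 278 and 203 CPM in vATM. Cd163, the receptor for haptoglobin-hemoglobin complexes, had 51.4 and 40.2 CPM in sATM and 162 and 126 CPM in vATM. In all 3 genes both sATM libraries were below both vATM libraries.

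Other members showed a graded pattern, with sATM 1 lowest and sATM 2 between it and vATM. Folr2, a folate receptor, had 38.5 and 213 CPM in sATM and 326 and 515 CPM in vATM. Retnla, a secreted protein of alternative activation, had 837 and 4602 CPM in sATM and 9629 and 6119.5 CPM in vATM. Fcna, a ficolin, had 4.33 and 34.7 CPM in sATM and 124 and 146 CPM in vATM, and Fcna overlaps an antisense gene in the annotation. In this list 23 of 24 members at 10 CPM were lower in sATM 1 than in sATM 2, Cd163 being the exception. The median sATM 2 minus sATM 1 difference of these members was 0.96, beside 0.06 over all genes at 10 CPM. Timd4, a phosphatidylserine receptor of long-lived resident macrophages, was low in every library, with 6.11 and 9.77 CPM in sATM and 22.5 and 24.2 CPM in vATM. Some abundant members differed less. Mrc1, the mannose receptor, had 334 and 524 CPM in sATM and 834 and 747 CPM in vATM, and F13a1 had 492 and 648 CPM in sATM and 884 and 799 CPM in vATM. Neither was called. With sATM 2 alone, 14 members lay below both vATM libraries by the same rule, and with sATM 1 alone 22 did.

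**Figure D4:**
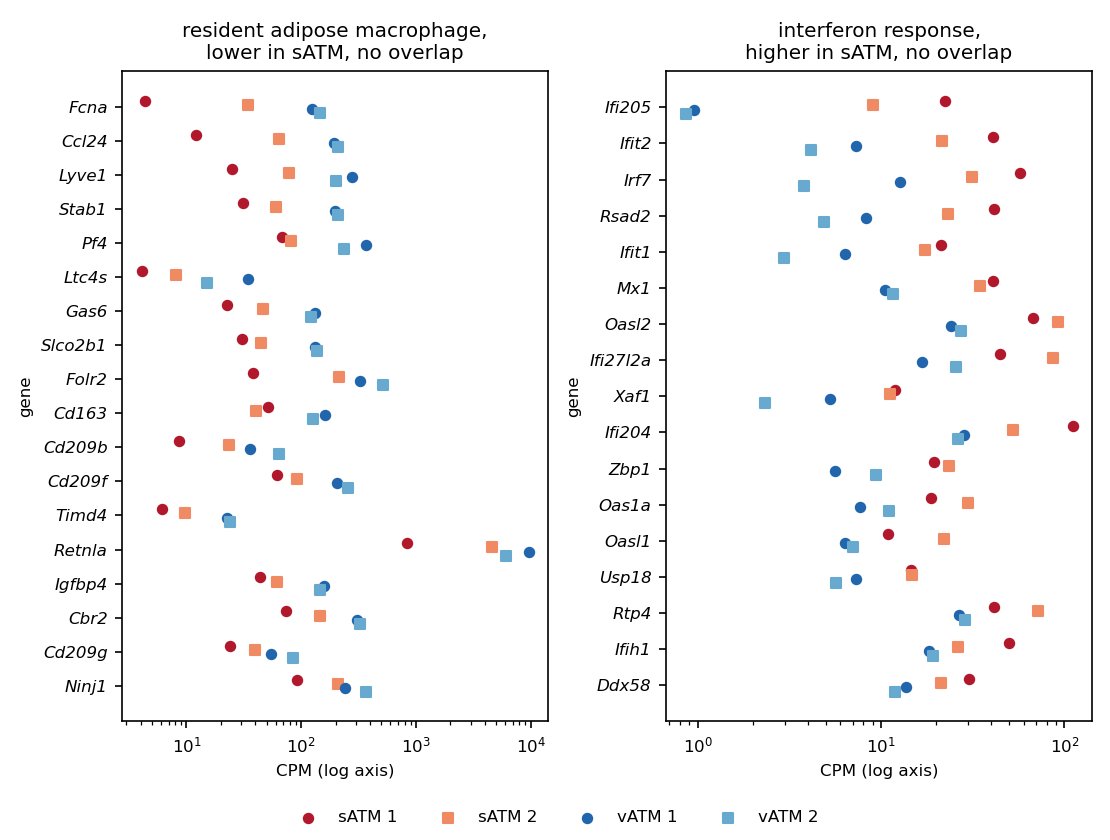
CPM on a log axis for the members whose libraries did not overlap, with each point a library: 18 resident adipose macrophage genes, all lower in sATM, and 17 of the 18 interferon response genes, all higher in sATM. For resident genes such as Fcna and Retnla sATM 1 lies furthest to the left, whereas for interferon genes neither sATM library is the higher throughout.

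Iron, scavenging and complement genes also held lower members, but the lists share genes with the resident list. Cd163, counted here with iron genes, and Mrc1 and Mgl2, counted with scavenger receptors, are resident list members too. The counts below are thus not separate from those above. In the iron and heme list 4 of 16 genes at 10 CPM were lower without overlap and 0 higher, where 4.19% and 3.4% of all genes at that level were. Besides Slc40a1 and Cd163 these were Blvrb, biliverdin reductase B, with 45.1 and 78.6 CPM in sATM and 129 and 155 CPM in vATM, and Tfrc, the transferrin receptor, with 1.02 and 15.6 CPM in sATM and 26.7 and 29.2 CPM in vATM. Heme oxygenase Hmox1 had 36.4 and 32.7 CPM in sATM and 35.9 and 21.9 CPM in vATM, and ferritin Fth1 had 1037 and 1421 CPM in sATM and 1568 and 1210.5 CPM in vATM, so the tissues overlapped for both. Among 24 scavenger receptors and lectins at 10 CPM, 8 were lower without overlap and 0 higher, beside the same 4.19% and 3.4%. Cd36, which takes up fatty acids and oxidized lipoprotein, had 173 and 216 CPM in sATM and 485 and 348 CPM in vATM.

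Among 21 complement and phagocytic receptor genes at 10 CPM, 6 were lower and 3 higher without overlap, beside 4.19% and 3.4% of all genes. C1qa, a chain of the complement component C1q, had 241 and 807 CPM in sATM and 1045 and 1371 CPM in vATM. Gas6, the bridging ligand of the Axl and Mertk receptors, had 22.4 and 46.1 CPM in sATM and 133 and 122 CPM in vATM. The higher genes were the activating Fc receptor Fcgr4, the integrin Itgav and the complement factor Cfb. Fcgr4, which in mice is high on nonclassical monocytes, had 99.1 and 49.1 CPM in sATM and 20.7 and 12.5 CPM in vATM (2.15 ± 0.42, SE, edgeR adjusted p = 0.108). Of 21 lipid genes at 10 CPM, 4 were higher and 2 lower without overlap, beside 3.4% and 4.19% of all genes. Scarb1, a receptor for high-density lipoprotein, had 75.4 and 27.5 CPM in sATM and 19.3 and 17 CPM in vATM. Soat1, which esterifies cholesterol, had 89.9 and 43.0 CPM in sATM and 27.9 and 25.2 CPM in vATM. Apoe, which carries cholesterol out of macrophages, had 3245 and 5132 CPM in sATM and 5761 and 7623 CPM in vATM and was not called.

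Of 15 chemokine genes at 10 CPM, 6 were lower without overlap and 0 higher, beside 4.19% and 3.4% of all genes. EdgeR called 0 of the 24 tested, with 4 lower at an unadjusted p below 0.05, beside 1.77% of all genes. DESeq2 and voom with quality weights called 2 each, all lower, where they called 35 and 14 lower over all genes. Ccl24, the eosinophil attractant eotaxin-2, had 12.2 and 64.2 CPM in sATM and 195 and 209 CPM in vATM (-2.39 ± 0.55, SE, edgeR adjusted p = 0.167). Pf4, platelet factor 4, had 68.8 and 82.0 CPM in sATM and 369 and 235 CPM in vATM. Ccl2, which attracts monocytes, had 41.3 and 202 CPM in sATM and 197 and 203 CPM in vATM, with sATM 1 alone low. Among 10 growth factor genes at that level 4 were lower without overlap and 1 higher, beside the same shares. Igf1, insulin-like growth factor 1, had 57.8 and 99.4 CPM in sATM and 192 and 194 CPM in vATM. Among inflammatory mediators, Tnf had 9.93 and 36.3 CPM in sATM and 66.4 and 62.7 CPM in vATM, while Il1b had 245 and 181 CPM in sATM and 170.0 and 153 CPM in vATM. Immediate-early genes, which tissue digestion can induce, were listed with heat shock genes. Their median log2 fold change was 0.03 over 25 genes. Of the 23 at 10 CPM, 3 were lower without overlap (Egr2, Egr3 and Nr4a3) and 0 higher, beside 4.19% and 3.4% of all genes. Fos had 2031 and 1487 CPM in sATM and 1508 and 1201 CPM in vATM.

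Interferon response genes had like medians in both sATM libraries, above vATM, though edgeR called 0 of 31 tested. DESeq2 called 4, voom with quality weights 2 and edgeR with no count filter 2, all higher, where these fits called 84, 21 and 67 higher over all genes. At an unadjusted p below 0.05, 11 were higher and 0 lower, beside 1.95% and 1.77% of all genes, and the list had a median log2 fold change of 1.19. Libraries did not overlap for 18 of the 26 members at 10 CPM, all higher in sATM, beside 3.4% of all genes at that level. Summed CPM were 2252 and 2228 in sATM and 1222 and 1124 in vATM. The medians against the vATM mean were 1.11 in sATM 1 and 1.20 in sATM 2, unlike those of the nonclassical list. With sATM 1 alone 16 members stood clear of vATM and with sATM 2 alone 13 did, but uncorrected gene-body counts gave 11 in place of 18.

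Genes of the interferon list are induced through factors that bind paired GAAA repeats in promoters. The 250 bases before the start site of 4 members are shown. Among the members without overlap between tissues that had a matched promoter window, these hold the motif GAAANNGAAA, in which N is any base. It was searched on both strands, matches could overlap, and the sequences are from RefSeq on build GRCm38.p6, in lower case, 5′ to 3′ along the gene, with matches in capitals (read on either strand).
Rsad2, chr12:26456453-26456702, minus strand: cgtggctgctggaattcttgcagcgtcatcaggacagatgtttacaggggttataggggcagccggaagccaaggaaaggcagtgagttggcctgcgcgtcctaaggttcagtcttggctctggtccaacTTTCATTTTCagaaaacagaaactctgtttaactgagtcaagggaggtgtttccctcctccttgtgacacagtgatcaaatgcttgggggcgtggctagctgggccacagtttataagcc
Ifit1, chr19:34640639-34640888, plus strand: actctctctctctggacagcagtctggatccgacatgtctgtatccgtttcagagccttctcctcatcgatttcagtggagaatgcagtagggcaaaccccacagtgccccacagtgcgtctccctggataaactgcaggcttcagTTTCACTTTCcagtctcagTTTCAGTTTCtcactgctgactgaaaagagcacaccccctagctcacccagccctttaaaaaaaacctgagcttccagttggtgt
Ifi205, chr1:174031756-174032005, minus strand: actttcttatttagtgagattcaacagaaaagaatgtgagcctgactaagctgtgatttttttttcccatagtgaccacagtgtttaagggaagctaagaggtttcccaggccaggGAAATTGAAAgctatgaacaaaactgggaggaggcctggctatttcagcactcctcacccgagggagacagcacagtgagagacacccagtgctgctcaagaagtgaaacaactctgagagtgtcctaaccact
Oas1a, chr5:120907526-120907775, minus strand: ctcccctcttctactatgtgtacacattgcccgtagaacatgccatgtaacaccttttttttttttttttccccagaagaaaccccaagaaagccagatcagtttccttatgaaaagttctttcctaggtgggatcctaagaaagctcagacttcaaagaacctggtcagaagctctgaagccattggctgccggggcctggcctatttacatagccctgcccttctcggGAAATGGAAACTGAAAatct
Rsad2, which encodes the antiviral protein viperin, had 41.5 and 23.1 CPM in sATM and 8.26 and 4.92 CPM in vATM (2.28 ± 0.50, SE, edgeR adjusted p = 0.145). Ifit1, which binds viral RNA, had 21.4 and 17.5 CPM in sATM and 6.35 and 2.95 CPM in vATM. Both sATM libraries were above both vATM libraries in each. Ifi205, of the family of cytosolic DNA sensors, had 22.4 and 9.08 CPM in sATM and 0.958 and 0.86 CPM in vATM. Oas1a, an oligoadenylate synthetase activated by double-stranded RNA, had 18.8 and 29.9 CPM in sATM and 7.66 and 11.1 CPM in vATM. The sATM libraries lay above there too, with sATM 1 the higher in 3 of the 4 genes and sATM 2 in Oas1a.

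Of 27025 genes with a promoter window in RefSeq, 936 held the motif (3.46%), and of the interferon list 13 of the 22 genes with a window did (59.1%). A window was matched for 11 of the 18 members without overlap and for 11 of the other 13. Of those without overlap 4 of 11 held the motif (36.4%), and of the others 9 of 11 (81.8%). The motif is thus a feature of the list. Among members with a window it was not more frequent in those that separated the tissues. A match describes letters in a window and is no evidence of binding. Among list members without a printed promoter, Irf7, the interferon regulatory factor of the later response, had 57.3 and 31.3 CPM in sATM and 12.7 and 3.81 CPM in vATM. Mx1, an antiviral GTPase, had 41.0 and 34.7 CPM in sATM and 10.5 and 11.7 CPM in vATM. The tissues did not overlap in any of these. In contrast, the chemokine Cxcl10, also interferon-induced, had 22.9 and 16.3 CPM in sATM and 20.6 and 18.4 CPM in vATM. Irf7 averaged 52.4 ± 6.00 CPM in spleen macrophages and 47.5 ± 30.3 CPM in ganglion macrophages (SD, n = 3). Both means were near the sATM mean of 44.3 ± 18.4 CPM (SD, n = 2). Oas3, another oligoadenylate synthetase gene, did not follow in spleen. It averaged 47.5 ± 6.66 CPM in sATM (SD, n = 2), 4.62 ± 4.27 CPM in spleen and 37.1 ± 7.48 CPM in ganglia (SD, n = 3).

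The 2 sATM libraries differed across the transcriptome. Over genes at 10 CPM the SD of the sATM 2 minus sATM 1 difference was 0.936 log2 units, against 0.406 for vATM 2 minus vATM 1. Across genes, sATM 1 correlated with sATM 2 at r = 0.880, with vATM 1 at 0.894 and with vATM 2 at 0.866, whereas sATM 2 correlated with the vATM libraries at 0.931 and 0.940 and these with each other at 0.942. These values describe the 15289 genes, which share libraries and are not replicates. By this measure sATM 2 lay nearer to both vATM libraries than to sATM 1. Depth, the ribosomal share and the DNA gauge also differ between the sATM libraries, as given above, and their part was not tested.

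Toward sATM 1, the largest differences included nonclassical monocyte genes and others. Hes1, a Notch target, had 124 and 0.575 CPM in sATM and 4.91 and 3.69 CPM in vATM. S1pr5, a sphingosine-1-phosphate receptor of patrolling monocytes and NK cells, had 50.4 and 0.92 CPM in sATM and 0 CPM in both vATM libraries. Pglyrp1, a peptidoglycan recognition protein, had 66.0 and 1.38 CPM in sATM and 1.92 and 0.983 CPM in vATM. In these genes sATM 1 stood alone. Eef1a1, a translation factor of every cell, ranked first only because the corrected table lists it at 145 and 0 CPM in sATM and at 124 and 0 CPM in vATM. Its uncorrected counts were 3319 and 7819 in sATM and 6357 and 6074 in vATM, so a value of 0 there is no absence of the transcript.

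Toward sATM 2, cell cycle, antigen presentation and lysosomal genes were higher. All 8 cell cycle genes at 10 CPM were higher in sATM 2. Their median sATM 2 minus sATM 1 difference was 2.57, beside 0.06 over all genes at that level. Of the list, 10 were higher by at least 2 log2 units, where 2.3% of 6734 genes were. Mcm5, a subunit of the replication helicase, had 2.8 and 45.8 CPM in sATM and 24.8 and 37.9 CPM in vATM. Ccna2, cyclin A2, had 2.29 and 31.0 CPM in sATM and 18.1 and 20.6 CPM in vATM. Here sATM 1 was the library apart, and sATM 2 was above both vATM libraries in these genes. Summed CPM of the 31 cell cycle genes were 119.7 and 527 in sATM and 286 and 398 in vATM.

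MHC class II genes, which present antigen to CD4 T cells, followed the same order. All 9 at 10 CPM were higher in sATM 2 than in sATM 1. Summed CPM were 9543 and 27015 in sATM and 23121 and 23985 in vATM. H2-Ab1 had 2172 and 6930.3 CPM in sATM and 6024 and 6076 CPM in vATM, and the invariant chain Cd74 had 3039.6 and 9473 CPM in sATM and 7752 and 7913 CPM in vATM. The median of the list against the vATM mean was -1.35 in sATM 1 and 0.20 in sATM 2, opposite in sign. Of 28 lysosomal genes at 10 CPM, 24 were higher in sATM 2; the protease Ctsd had 251 and 1184 CPM in sATM and 615 and 674 CPM in vATM. Of 23 respiratory chain genes, 22 were higher in sATM 2. At 10 CPM, medians of sATM 2 minus sATM 1 were 1.46 for MHC class II, 0.69 for lysosomal and 0.79 for respiratory chain genes. Over all genes at that level the median was 0.06, and the share of all genes higher in sATM 2 was not counted. Between the tissues, edgeR, DESeq2 and voom with quality weights called 0 genes of the cell cycle, MHC class II, lysosome and respiratory chain lists. Over all genes these fits called 3, 84 and 21 higher and 3, 35 and 14 lower. At an unadjusted p below 0.05 there was 1 in edgeR, an MHC class II gene that was lower. Of all genes, 1.95% were higher and 1.77% lower at that level.

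A few genes were high in sATM 2 alone. Spp1, which encodes osteopontin, had 1.02 and 34.3 CPM in sATM and 2.04 and 5.16 CPM in vATM. Ly6a, which encodes the surface antigen Sca-1, had 12.2 and 156 CPM in sATM and 7.66 and 3.93 CPM in vATM. Others were low in sATM 1 alone. Lyz1, a lysozyme, had 161 and 1536 CPM in sATM and 2296 and 1812 CPM in vATM. Ccl7, a chemokine for monocytes, had 4.58 and 56.3 CPM in sATM and 57.5 and 70.9 CPM in vATM, and Aldh1a2, which makes retinoic acid, had 12.2 and 107 CPM in sATM and 122 and 109.6 CPM in vATM.

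**Figure D5:**
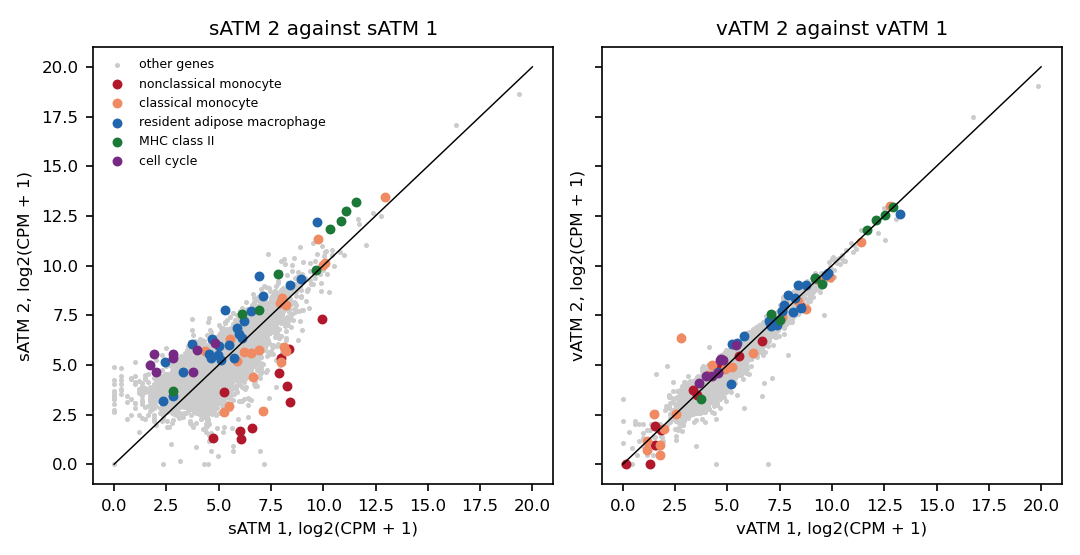
Log2(CPM + 1) of library 2 against library 1 for genes at 10 CPM, in sATM (left) and vATM (right), with gene lists in color and a line of equality. Nonclassical monocyte genes lie below the line and cell cycle, MHC class II and most resident macrophage genes above it in sATM, where the SD of the differences is 0.936, while in vATM, with 0.406, they lie along it.

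Genes outside the lists with the smallest p that were not called, chosen after their values were seen, showed both kinds of pattern. Cd300c2, a receptor of the CD300 family, was the most even of the higher ones, with 90.7 and 96.1 CPM in sATM and 35.6 and 32.4 CPM in vATM (1.46 ± 0.29, SE, edgeR adjusted p = 0.112). Tspan13 had 62.4 and 18.6 CPM in sATM and 7.3 and 5.04 CPM in vATM (2.70 ± 0.47, SE, edgeR adjusted p = 0.0749). Sema4d, a semaphorin, had 216 and 36.8 CPM in sATM and 18.0 and 15.5 CPM in vATM. In both Tspan13 and Sema4d sATM 1 was the highest. Among the lower ones, Tns1, a focal adhesion protein, had 29.3 and 43.9 CPM in sATM and 127 and 128 CPM in vATM (-1.79 ± 0.34, SE, edgeR adjusted p = 0.0991). Gpr34, a lysophosphatidylserine receptor, had 13.8 and 12.6 CPM in sATM and 43.5 and 53.0 CPM in vATM. Cd33, a sialic acid-binding receptor, had 8.91 and 7.13 CPM in sATM and 33.4 and 36.1 CPM in vATM. In Gpr34 and Cd33 the sATM libraries lay close together, unlike in Tspan13 and Sema4d.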

How the data were processed

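Low-input RNA-seq of total RNA from 15 libraries in 6 groups was used, with the 4 fat libraries compared here. The submitters' processing notes name STAR, HOMER and build mm10. Tool versions, how DNA was removed, how shared reads were assigned and whether strand was used: not given in the sources used here. The main table, as deposited, holds estimated counts per gene (24084 genes) from which the authors removed DNA contamination; 45.3% of its values are whole. A table of raw counts over gene bodies without that removal (24525 genes) and a table of RPKM values (24414 genes) were deposited by the authors too. After rounding, the estimated counts went into edgeR 4.0.16 (R 4.3.3): filterByExpr (minimum count 10, 15289 genes), TMM, 1 mean per group over all 15 libraries (common biological coefficient of variation 0.680), and quasi-likelihood F-tests with Benjamini-Hochberg adjustment. A call needed an adjusted p below 0.05 and a log2 fold change (sATM minus vATM) of at least 1 in size. CPM use TMM-scaled totals that include genes collecting ribosomal RNA reads. On simulated data with known changes the test missed every 2-fold change and most 4-fold changes, and it called a small number of unchanged genes. A list with 0 calls can thus still differ between the tissues. A true 2-fold change can also be missed because its estimate falls short of the size that a call needs. The simulation gave both tissues the same spread, whereas in the data the sATM libraries lay further apart than the vATM libraries. Alternatives used DESeq2 1.42.0, limma 3.58.1, RLE scaling, other tables, filters and libraries left out.

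Named genes were up to 15 called genes in each direction without overlap and with at least 30 CPM, the 4 markers, Adgre1 and Ptprc, up to 6 members of each list (called, then by mean CPM), and the 12 genes furthest apart between the sATM libraries in each direction. Pxdc1 and the other list members named were chosen after their values were seen. The members and lists were chosen with earlier results of these data known. Promoter windows were matched by symbol. Overlapping genes are from GENCODE on mm10. Some list members are counted but not reported here by name.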

Additional observations from a re-analysis of the deposited data

How the results depend on the processing

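The counts of genes higher and lower and of called list members (3, 3 and 4) were the same with RLE scaling and with the genes that collect ribosomal RNA reads left out. They were 67, 15 and 30 with no count filter, 84, 35 and 39 with DESeq2 (5343 adjusted p undefined), 21, 14 and 17 with voom and quality weights, and 15, 10 and 8 without the SAM fibers libraries. Of these sets, 6, 6, 4 and 6 genes are shared with the 6 reported. With the 4 fat libraries only they were 0, 0 and 0 (564 genes at an unadjusted p below 0.05 in edgeR), and with raw gene-body counts 0, 0 and 0 (189). The RPKM table gave 5, 1 and 3 with a pseudocount of 0.1 and 3, 0 and 3 with 1. Leaving out each fat library in turn gave 0 to 52 higher genes, 0 to 16 lower genes and 0 to 29 list members; only the fit without sATM 2 called any.

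Replicate numbers are shared by number alone: the deviations of sATM 1 and vATM 1 from their group means correlated at 0.234 over 15289 genes. With a replicate block the counts were 10, 3 and 10 (546 genes at an unadjusted p below 0.05), and this pairing is not stated by the labels.

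The median sATM 2 minus sATM 1 difference of the classical monocyte list, -0.61, was -1.52 with raw gene-body counts and -0.36 with RPKM values; the cause was not tested. Over 4411 comparisons of 297 named genes with an alternative, 3892 kept direction and side of the threshold, 155 gained a call, 41 lost one, 323 changed sign with neither value called, and 0 called values reversed. Most of these genes were not called at first, so keeping the side mostly meant staying uncalled. All 41 losses fell on the 6 called genes. Of 15 alternatives, the call was kept in 10 for Plac8 and Ly6c2, 9 for Gngt2, 7 for Slc40a1 and Slco2b1 and 6 for Pxdc1. Genes under about 1 CPM rest on a few counts.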
